A study of Mus musculus with 4 samples.

Results

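The mechanically gated channels Piezo1 and Piezo2, the Hippo pathway effectors Yap1 (YAP) and Wwtr1 (TAZ) and the YAP/TAZ target genes Ctgf, Cyr61, Ankrd1 and Amotl2 were followed in single-cell RNA sequencing of mouse bone. These 8 genes, of 31053 in the count matrices, were taken by symbol, and they were read in the 32217 of 40003 deposited barcodes that held 1000 to 40000 unique molecular identifiers (UMIs, 1 per captured transcript molecule) with at most 10% of them mitochondrial. Bone came from 2 control (Ctrl) mice and 2 mice under hindlimb unloading (HLU), in which suspension by the tail for 28 days took the load off the hind limbs. All were wild type, C57BL/6J by the study's methods, and the sources used here do not give a single age for them. Tibiae and femurs were flushed of marrow and digested, and each group gave 2 libraries (10x Genomics 3′ kit, version 3.1). The study asked how the cell types of bone respond to the loss of load.

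Piezo1 and Piezo2 are large ion channels that open when the membrane is stretched and let in calcium. YAP and TAZ are co-activators that the Hippo kinases keep in the cytoplasm, and in cells under tension on a stiff matrix they enter the nucleus and act through the DNA-binding TEAD factors. Ctgf and Cyr61 encode secreted matricellular proteins, Ankrd1 a cardiac and stress-induced ankyrin repeat protein and Amotl2 an angiomotin that in turn binds YAP, and in bone Piezo1, YAP and TAZ are known from cells of the osteoblast lineage and from cartilage.

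On the mouse genome GRCm38 (mm10), with GENCODE M21 genes, Piezo1 lies on the minus strand of chromosome 8 (122481698 to 122551329), Yap1 on the minus strand of chromosome 9 (7931999 to 8004596) and Wwtr1 on the minus strand of chromosome 3 (57455649 to 57575910). Ctgf, named Ccn2 in that annotation, lies on the plus strand of chromosome 10 (24595442 to 24598683), and Cyr61, named Ccn1, on the minus strand of chromosome 3 (145646976 to 145649981). Ankrd1 lies on the minus strand of chromosome 19 (36111961 to 36120099) and Amotl2 on the plus strand of chromosome 9 (102716672 to 102733418). The counts are of the whole gene from its 3′ end, so a level is not divided by gene length.

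The TEAD recognition motif GGAATG, with its reverse complement CATTCC, was looked for in the 250 bases before each RefSeq start (GRCm38.p6), since YAP and TAZ bind DNA through TEAD and the members were higher together in 1 cell class. It stood in the windows of 5 of the 6 members matched (Yap1, Wwtr1, Cyr61, Ankrd1 and Amotl2), not in that of Piezo1, and in 12.6% of all 32851 windows. Ctgf and Piezo2 had no window to search, and the 12.6% counts windows, of which a gene can have several. Cyr61, Ankrd1 and Amotl2 were taken because they are YAP/TAZ target genes, so 5 of 6 against 12.6% is no test of enrichment. A match is a description of the letters and no test of TEAD binding. The windows of Wwtr1 (chr3:57575911-57576160, minus strand) and Cyr61 (chr3:145649986-145650235, minus strand), which overlap no annotated exon, are shown whole, and for Yap1 (chr9:8004720-8004749, minus strand), Amotl2 (chr9:102717727-102717756, plus strand) and Ankrd1 (chr19:36120037-36120066 and chr19:36119950-36119979, minus strand) 30 bases around each match. All are written 5′ to 3′ along the gene, with the motif in capitals.
Wwtr1: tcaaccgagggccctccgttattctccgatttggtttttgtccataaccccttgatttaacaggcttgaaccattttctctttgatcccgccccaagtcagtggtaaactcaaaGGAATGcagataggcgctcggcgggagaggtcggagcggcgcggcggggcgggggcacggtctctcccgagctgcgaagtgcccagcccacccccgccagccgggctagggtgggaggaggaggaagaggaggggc
Cyr61: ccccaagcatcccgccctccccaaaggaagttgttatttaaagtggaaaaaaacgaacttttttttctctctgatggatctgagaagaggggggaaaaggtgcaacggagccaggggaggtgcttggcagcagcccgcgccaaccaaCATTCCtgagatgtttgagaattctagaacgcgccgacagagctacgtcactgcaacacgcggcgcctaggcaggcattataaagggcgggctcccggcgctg
Yap1: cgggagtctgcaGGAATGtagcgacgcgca
Amotl2: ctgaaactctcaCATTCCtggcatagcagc
Ankrd1, distal match: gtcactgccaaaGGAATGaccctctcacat
Ankrd1, proximal match: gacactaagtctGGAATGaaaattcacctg
The match began 136 bases before the RefSeq start in Wwtr1, 103 in Cyr61, 141 in Yap1, 65 in Amotl2, and 210 and 123 in Ankrd1. Wwtr1 has another RefSeq start, 170 bases after the beginning of the same match, whose window overlaps 1 annotated exon. The windows of Yap1, Amotl2 and Ankrd1 overlapped 1, 2 and 6 annotated exons. Those of Amotl2 and Ankrd1 lie inside the GENCODE gene bounds given above, so their matches are not upstream of every annotated transcript.

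Values come in 1 order throughout, both Ctrl libraries by replicate number and then both HLU libraries. The libraries kept 7340, 7635, 7757 and 9485 barcodes, with medians of 6294.5, 5787, 3799 and 6147 UMIs, and any 2 libraries shared 23 to 36 barcodes. Barcodes were put into cell types by marker gates that hold none of the 8 genes. A barcode was skeletal when at least 5 of 42 markers of chondrocytes, osteoblasts, stromal cells and connective tissue, together at least 2% of its UMIs, were seen and neutrophil markers made up at most 10%, and blood cells were gated by 10 lists of their own. Skeletal barcodes numbered 3283, 2270, 27 and 76, or 44.7%, 29.7%, 0.348% and 0.801% of the library, and blood barcodes 2337, 3733, 6245 and 8527. The skeletal share was 37.2% ± 10.6 (SD, n = 2) in Ctrl and 0.575% ± 0.320 in HLU, without overlap. An exact permutation test (two-sided) of this share had p = 0.333 and cannot go lower with 2 libraries a group.

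The skeletal gates held little mature bone. Chondrocyte markers made up 2.20% to 3.13% of skeletal UMIs and osteoblast markers 0.0638% to 0.120%, and the osteocyte genes Dmp1, Mepe and Phex lay at 0 to 7.26 UMIs per 1000000 UMIs of those gates (CPM), the unit of every level given here. HLU replicate 1 stood apart, since its 27 skeletal cells were 13 chondrocyte-like, 9 osteoblast-like, 5 of no single list and 0 stromal-like or connective-tissue-like, while the other libraries held all 4 types. Neutrophil markers made up 0.571%, 0.890%, 1.16% and 1.29% of the skeletal UMIs. Their part in the members' levels was not tested. HLU replicate 2 held only 267 barcodes under 1000 UMIs, against 2143 to 2585 in the others.

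Where the 8 genes were read was the first question. Ctgf was among the most abundant transcripts of the skeletal cells, at 7422, 6277, 5239 and 4410 CPM in those gates, and it stood 13th of 18604 detected genes in Ctrl replicate 1 and 14th to 18th in the other libraries. Cyr61 followed at 408, 379, 726 and 201 CPM and Wwtr1 at 147, 148, 186 and 212 CPM, with Cyr61 above Wwtr1 in all but HLU replicate 2. The other 5 members were lower in each library.

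Amotl2 was read at 58.5, 54.3, 79.8 and 102 CPM in the skeletal gates. Piezo1 was read at 47.6, 56.0, 58.1 and 56.8 CPM there. Yap1 was read at 35.8, 34.3, 46.0 and 20.8 CPM there. In the Ctrl libraries Amotl2 and Piezo1 were neighbours whose ranges overlapped in part (54.3 to 58.5 and 47.6 to 56.0 CPM), while Yap1 lay below both, and TAZ transcripts outnumbered YAP transcripts in every library.

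Piezo2 and Ankrd1 were near the limit of detection. Piezo2 had 46, 17, 1 and 0 UMIs in the skeletal gates, and 0 in HLU replicate 2 allows a level of up to 4.15 CPM by counting error alone. Ankrd1 had 115, 26, 0 and 65 UMIs there, of which 72.2% and 80.8% lay in the 5 highest cells of the Ctrl libraries and all 65 of HLU replicate 2 in a single chondrocyte-like cell. No Ankrd1 level of a group can be read from these counts without those cells.

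**Figure D1:**
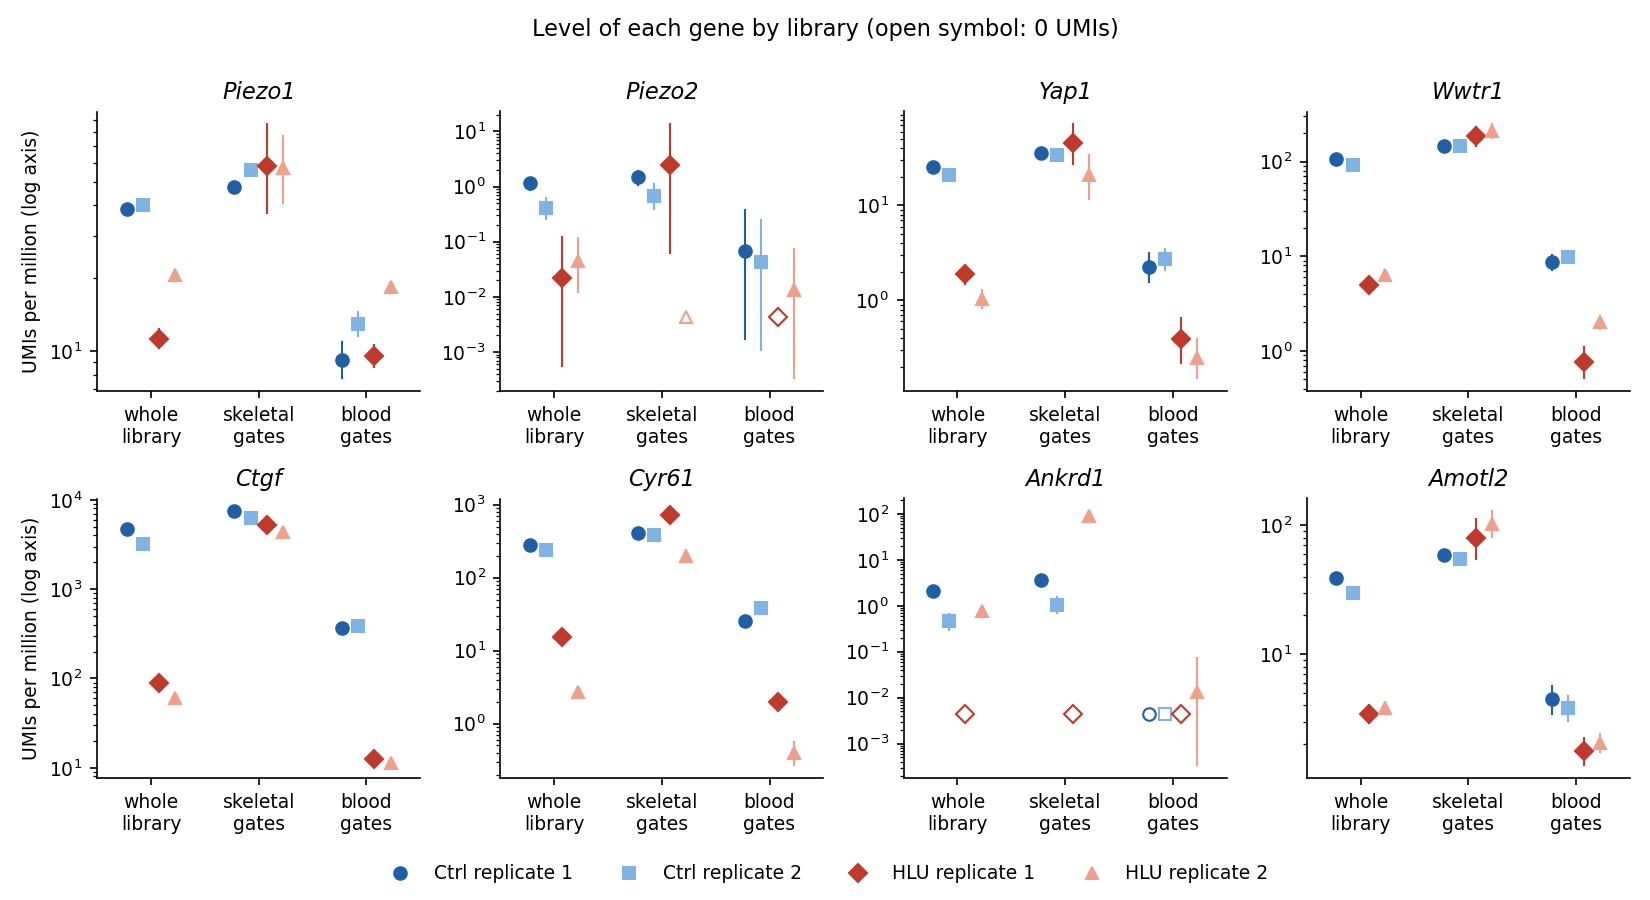
CPM (log axis) of each of the 8 genes in whole libraries, in the skeletal gates and in the blood gates, with 1 symbol per library and bars for exact 95% Poisson intervals, which cover counting error only. Ctgf, Cyr61, Yap1, Wwtr1 and Amotl2 are lower in both HLU libraries in the whole libraries and in the blood gates, while their skeletal levels in HLU are above, near or less far below those of Ctrl.

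Within libraries the skeletal cells were compared with the blood cells by edgeR's quasi-likelihood test on summed counts, with library as a block. All 6 members that passed the filter on low counts were higher in the skeletal gates, where 27.3% of 13134 genes tested were higher. A member low in blood cells could pass the filter through its skeletal sums, as did Cyr61 and Yap1 (2.27, 2.71, 0.395 and 0.250 CPM in blood cells). All 6 is therefore no share of the members. In blood cells Ctgf was read at 370, 382, 12.5 and 11.4 CPM, Cyr61 at 25.3, 38.8, 1.95 and 0.394, and Wwtr1 at 8.66, 9.72, 0.764 and 2.00. Every library had more of each in its skeletal cells.

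The skeletal level exceeded the blood level by 6.05 ± 1.14 on the log2 scale for Ctgf (SE, edgeR adjusted p = 0.00416), by 5.72 ± 1.28 for Cyr61 (adjusted p = 0.00820) and by 5.18 ± 0.77 for Wwtr1 (adjusted p = 0.00161). Yap1 was higher by 4.52 ± 0.59 (adjusted p = 0.000916) and Amotl2 by 4.26 ± 0.40 (adjusted p = 0.000300). Piezo1 had the smallest difference of the 6, 1.81 ± 0.18 (adjusted p = 0.000376). It was read in blood cells at 9.21, 12.96, 9.57 and 18.3 CPM, all below its skeletal levels. The fit gives a single difference per gene for all libraries. For each of the 6 but Piezo1 the skeletal excess was larger in both HLU libraries than in both Ctrl libraries, as blood levels were lower in HLU. The order of these genes is thus one over all libraries and need not hold within Ctrl.

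The skeletal types differed in which member stood out. In Ctrl, Ctgf was highest in chondrocyte-like cells (9570.4 and 7862 CPM) and lowest in stromal-like cells (4813 and 3577), with osteoblast-like (5712 and 5049) and connective-tissue-like cells (5896 and 4974) between them and overlapping each other. Cyr61 was highest in osteoblast-like cells (489 and 526) and lowest in stromal-like cells (296 and 273). Amotl2 shared the low stromal-like level (42.2 and 31.4 CPM, against 67.4 and 67.0 in chondrocyte-like cells).

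Yap1 differed little between these types, at 29.7 to 41.6 CPM over all 8 Ctrl values. Wwtr1 ran from 115 in stromal-like cells of Ctrl replicate 1 to 194 in osteoblast-like cells of Ctrl replicate 2, and the osteoblast-like values of HLU, 391 and 540 CPM, rested on 9 and 4 cells. Piezo1 lay between 39.8 and 62.1 CPM in the 4 types of both Ctrl libraries. It was lowest in osteoblast-like cells (39.8 and 43.1 CPM, on 68 and 61 UMIs), little below connective-tissue-like cells (47.0 and 44.9 CPM). Outside the skeletal lists, the few endothelial-like cells (7, 8, 6 and 7) had 447, 407, 827 and 522 CPM of Wwtr1, above the skeletal level of their own library in all 4.

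**Figure D2:**
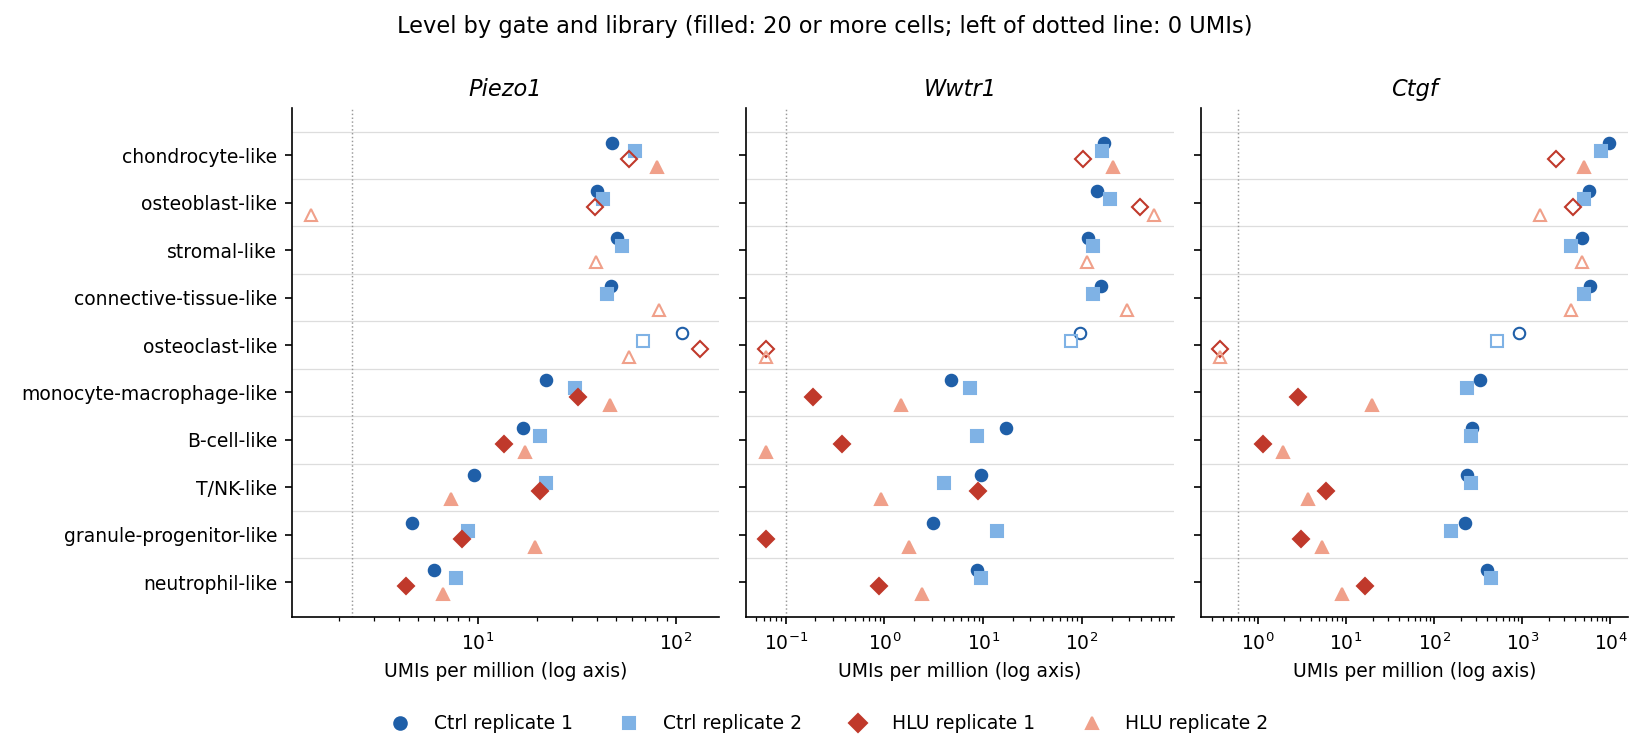
CPM (log axis) of Piezo1, Wwtr1 and Ctgf in 4 skeletal and 6 blood gates, with 1 symbol per library and filled for 20 or more cells. Symbols left of the dotted line are at 0 UMIs. Piezo1 is higher in monocyte-macrophage-like than in neutrophil-like cells in each library (22.2 against 6.0 CPM in Ctrl replicate 1).

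Among the larger blood gates, Piezo1 was highest in cells of the monocyte line. Of the 5 blood gates with 20 or more cells in every library, monocyte-macrophage-like cells had the highest level in all 4 libraries, 22.2, 31.2, 31.9 and 46.4 CPM, against 6.0, 7.73, 4.34 and 6.72 in neutrophil-like cells, and the 2 sets do not overlap. B-cell-like cells lay between them at 16.9, 20.6, 13.5 and 17.3 CPM. Osteoclast-like cells, which resorb bone and derive from this line, were only 5, 13, 2 and 3 and had 107, 68.0, 132 and 58.2 CPM of Piezo1 (9, 14, 6 and 5 UMIs). In Ctrl these cells also held skeletal RNA, with Wwtr1 at 95.4 and 77.7 CPM. Skeletal markers there reached 25.6% and 21.6% of their level in barcodes under 1000 UMIs, against 3.72% and 4.11% in monocyte-macrophage-like cells. In HLU they were at 0% in osteoclast-like cells. The part of skeletal RNA in these Piezo1 levels was not tested.

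A Piezo1 UMI was seen in 19.1%, 26.4%, 28.8% and 41.6% of monocyte-macrophage-like cells, at medians of 8727, 9378.5, 11008.5 and 12355 UMIs per cell. Neutrophil-like cells, which serve as the type with little Piezo1, had 3.12%, 3.83%, 2.26% and 4.85%, at medians of 4019.5, 3796, 3929 and 6148. With each cell thinned to 1000 UMIs, which left out no cell, the shares were 3.28%, 4.11%, 3.83% and 3.56% against 0.539%, 0.889%, 0.431% and 0.424%. Monocyte-macrophage-like cells stayed above neutrophil-like cells in every library at equal depth, and the order of the 4 monocyte values by depth was gone.

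Few skeletal cells were read in HLU. For Piezo1, Yap1, Wwtr1, Ctgf, Cyr61 and Amotl2 the skeletal share of UMIs was smaller in both HLU libraries than in both Ctrl libraries. Skeletal cells held 68.8% and 59.5% of Piezo1 UMIs in Ctrl, and in HLU 4.70% and 2.27%, where monocyte-macrophage-like cells held 33.1% and 53.9%. Skeletal cells held 88.5% and 83.0% of Ctgf UMIs in Ctrl and still 53.9% and 59.7% in HLU, from 27 and 76 cells. Yap1 and Wwtr1 lay between these, with 78.2%, 70.1%, 22.4% and 16.5% of Yap1 and 76.8%, 68.2%, 34.5% and 27.8% of Wwtr1 UMIs in skeletal cells.

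Barcodes of no gate held the larger share of what was left of Yap1 in HLU, 52.9% and 51.6%, against 17.5% and 22.0% in Ctrl. Amotl2 behaved differently, since 42.7% and 46.0% of its HLU UMIs lay in blood gates, against 2.94% and 4.94% in Ctrl. Cyr61 UMIs were skeletal for 81.6%, 68.3%, 43.0% and 60.4%.

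**Figure D3:**
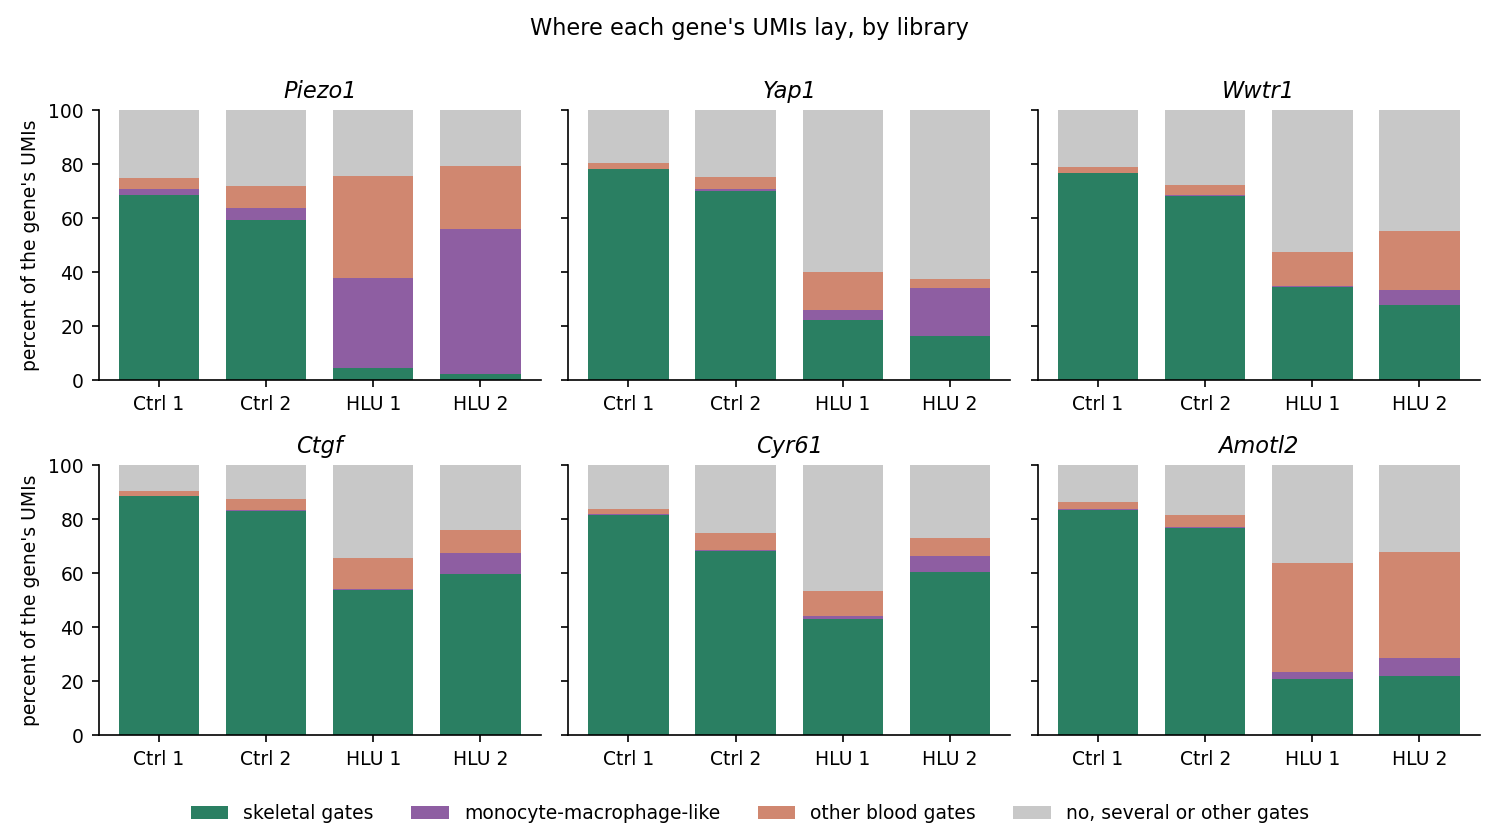
Share of each gene's UMIs (percent, bars from 0 to 100) in skeletal gates, monocyte-macrophage-like cells, other blood gates and the remaining barcodes, for 6 genes and each library. Piezo1 UMIs lie mostly in skeletal cells in Ctrl (68.8% and 59.5%) and mostly in blood cells in HLU (71.0% and 77.2%).

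The levels in blood cells were then set against background RNA. Droplets also catch RNA that leaked from broken cells, and barcodes under 1000 UMIs, which hold such RNA and small cells alike, were taken to measure it. These barcodes had 3640, 3258, 72.9 and 133 CPM of Ctgf, so the background of Ctrl was rich in Ctgf, and 59.2% and 65.4% of blood cells of Ctrl, against 2.79% and 1.27% in HLU, had a Ctgf UMI, at medians of 4409, 4133, 4178 and 6122 UMIs per cell. Thinned to 1000 UMIs a cell, these shares were 22.4%, 26.2%, 1.22% and 0.364%. The expected level in a blood gate was taken as the background level of the gene times the share of the background level that the 42 skeletal markers reached in that gate.

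In neutrophil-like cells the observed Ctgf UMIs were 1.12, 0.968 and 0.676 times those expected in Ctrl replicate 1, Ctrl replicate 2 and HLU replicate 1. The ratios were 0.866, 1.12 and 0.412 for Cyr61, 1.48, 0.885 and 0.304 for Yap1, 1.11, 1.26 and 0.243 for Wwtr1 and 1.25, 0.935 and 0.913 for Amotl2. In the skeletal gates of Ctrl the same ratio ran from 0.462 to 1.11 for these genes, so a ratio near 1 does not separate background from expression. In neutrophil-like cells of Ctrl the 5 genes stood at 0.866 to 1.48 times the expected UMIs. Neither expression nor its absence is read from these counts, and the part of background RNA in them was not tested. Without putative doublets the Ctrl means of these ratios were 1.13 for Ctgf to 1.62 for Amotl2, and that of Piezo1 was 1.78 against 1.14 with them. The background of HLU replicate 2, from 267 barcodes, held 0 UMIs of Yap1, Cyr61 and Amotl2, which gives no ratio, and 26 of Ctgf, 7 of Wwtr1 and 3 of Piezo1. On these few UMIs its neutrophil-like ratios were 0.516 for Ctgf and 0.515 for Wwtr1.

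Piezo1 in monocyte-macrophage-like cells was at 12.5, 13.6 and 23.6 times its expected UMIs, the highest of the 5 blood gates with 20 or more cells in every library. Some gates of fewer cells stood higher on few UMIs, such as dendritic-like cells of Ctrl replicate 2 (15.9 times on 8 UMIs) and megakaryocyte-like cells of HLU replicate 1 (29.6 times on 6 UMIs). B-cell-like cells followed, at 6.30, 4.85 and 16.6 times on 10, 24 and 36 UMIs, whereas Piezo1 in neutrophil-like cells was at 1.29, 0.992 and 1.21 times. In HLU replicate 2 the ratios of Piezo1 were 36.0 in monocyte-macrophage-like, 25.8 in B-cell-like and 3.33 in neutrophil-like cells, against 3 background UMIs. The expected UMIs cover only background that goes with skeletal markers, while blood gates held 71.0% and 77.2% of Piezo1 UMIs in HLU. Background Piezo1 from blood cells was not estimated. The monocyte-macrophage-like level of Piezo1 was 46.4%, 56.1%, 295% and 302% of its whole background level. In Ctrl replicate 1, Ctrl replicate 2 and HLU replicate 1, Ctgf in monocyte-macrophage-like cells was at 2.42, 1.77 and 0.311 times. Cyr61 was at 2.09, 1.18 and 0.698 times there and Amotl2 at 2.00, 1.53 and 0.930 times. Wwtr1 was at 1.58, 3.30 and 0.140 times there (9, 24 and 1 UMIs) and Yap1 at 1.92, 2.48 and 1.26 times (2, 8 and 3 UMIs). In HLU replicate 2 Ctgf was at 1.75 times and Wwtr1 at 0.491 times. Against the lowest of the 5 blood gates in each library, the monocyte-macrophage-like level of Piezo1 was 4.78, 4.03, 7.36 and 6.90 times as high, the first against a gate with 3 Piezo1 UMIs. That of Ctgf was 1.46, 1.54, 2.51 and 10.2 times as high, the last 2 against gates with 3 and 2 Ctgf UMIs. A single cell can hold much of such a count, as in HLU replicate 2, where 182 of the 411 Ctgf UMIs of 1462 monocyte-macrophage-like cells came from 1 cell.

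**Figure D4:**
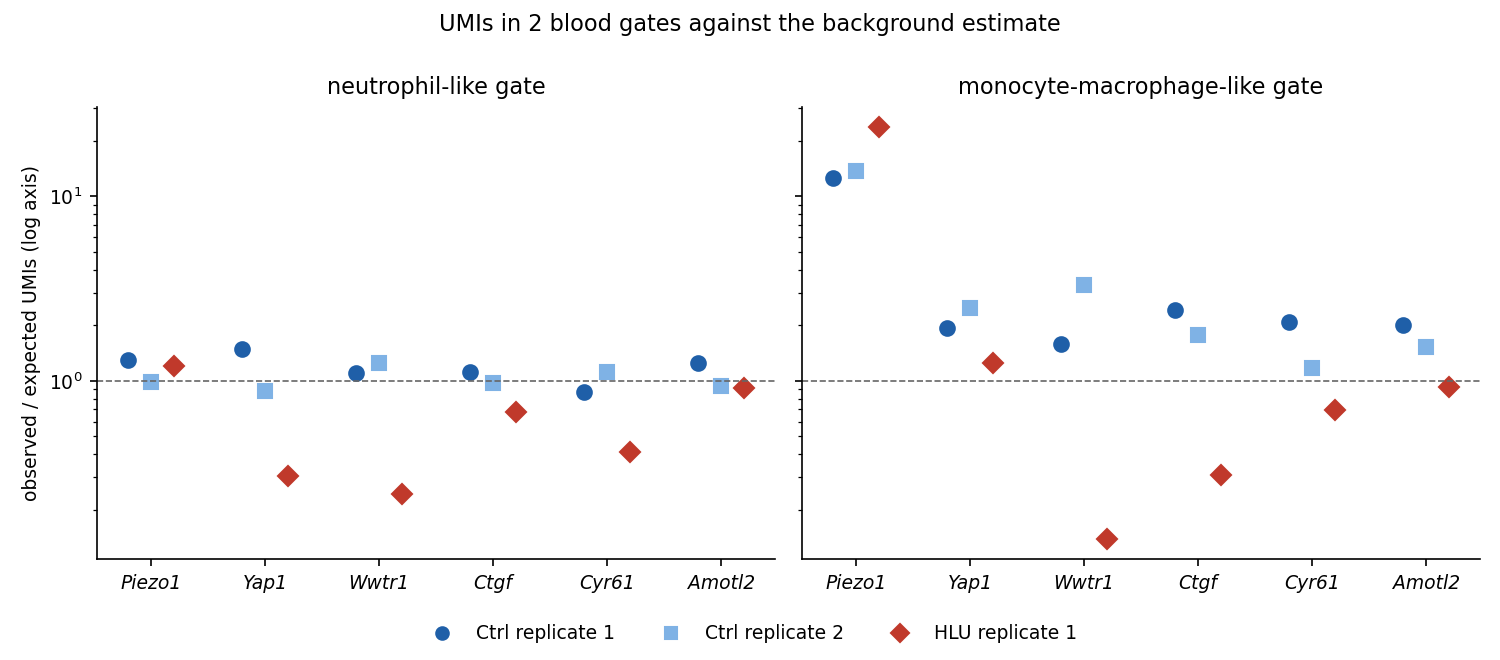
Observed over expected UMIs (log axis, dashed line at 1) of 6 genes in neutrophil-like and monocyte-macrophage-like cells of 3 libraries (HLU replicate 2 is not plotted), the expected value coming from barcodes under 1000 UMIs and 42 skeletal markers. Piezo1 in monocyte-macrophage-like cells lies at 12.5 to 23.6, and the target genes of the Ctrl libraries lie at 0.866 to 2.42.

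In whole libraries, the view of a bulk sample, 6 of the 8 genes were lower in HLU, where 17.1% of 15385 genes tested were lower by edgeR's quasi-likelihood test. Fewer skeletal cells and less RNA per cell cannot be told apart in such sums. Ctgf was read at 4688, 3208, 88.7 and 60.9 CPM and fell by 5.66 ± 0.42 on the log2 scale (SE, n = 2 and 2, edgeR adjusted p = 0.00326). Both HLU values lay far below both Ctrl values.

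Cyr61 was read at 280, 236, 15.4 and 2.74 CPM (log2 fold change -4.81 ± 0.85, edgeR adjusted p = 0.0187). Wwtr1 was read at 107, 91.9, 4.92 and 6.28 CPM (-4.07 ± 0.33, adjusted p = 0.00339 by edgeR). Yap1 was read at 25.6, 20.8, 1.87 and 1.04 CPM (-3.95 ± 0.38, adjusted p = 0.00419 by edgeR). In all 3 genes the groups did not overlap.

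Amotl2 was read at 39.3, 30.0, 3.46 and 3.85 CPM (log2 fold change -3.16 ± 0.30, edgeR adjusted p = 0.00414). Piezo2 had 64, 24, 1 and 4 UMIs (-4.24 ± 0.85, edgeR adjusted p = 0.0248). The filter on low counts kept Piezo2 through its Ctrl counts, and its HLU level rests on 1 and 4 UMIs. Piezo1 was read at 38.7, 39.96, 11.3 and 20.6 CPM and did not pass the test (-1.21 ± 0.39, edgeR adjusted p = 0.0816), although the groups did not overlap. Its log2 fold change was -0.71 without HLU replicate 1 and -1.80 without HLU replicate 2.

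Ankrd1, with 120, 27, 0 and 66 UMIs, had a log2 fold change of -1.57 ± 1.49 (edgeR adjusted p = 0.488). Without HLU replicate 2 and its single cell it was -9.12, a fitted value against 0 UMIs. Which members passed changed with the library left out, and each such fit leaves 1 library in a group. Piezo2 lost its call without either Ctrl library and Cyr61 without Ctrl replicate 1. The labels number the samples as replicates and the study's methods give 2 mice a group, so these p-values measure the spread between those samples.

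Within the skeletal cells themselves, no member passed the test (0 of 8), and neither did any of the 12707 genes tested (0%) by edgeR at an adjusted p under 0.05, while 1558 genes had an unadjusted p under 0.05 and DESeq2 called 226 (1.93%). Piezo1 had a log2 fold change of -0.08 ± 0.25 and Wwtr1 of 0.21 ± 0.29 (edgeR adjusted p = 0.931 and 0.80). Yap1 had -0.40 ± 0.33 (edgeR adjusted p = 0.645), with the HLU values, 46.0 and 20.8 CPM, above and below both Ctrl values. With 27 and 76 cells the HLU levels are coarse, as 19 and 15 Yap1 UMIs give exact 95% Poisson intervals of 27.7 to 71.8 and 11.6 to 34.2 CPM.

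Ctgf was lower in both HLU libraries than in both Ctrl libraries of skeletal cells (log2 fold change -0.74 ± 0.34, edgeR adjusted p = 0.430), and DESeq2 called it (-0.67, adjusted p = 0.0288). Cyr61 had -0.06 ± 0.53 (edgeR adjusted p = 0.981). Its level was 726 CPM in HLU replicate 1, above both Ctrl values, and 201 in HLU replicate 2, below both. Without HLU replicate 1 its log2 fold change was -1.13. Amotl2 had 0.49 ± 0.27 (edgeR adjusted p = 0.492) and was higher in both HLU libraries. In the chondrocyte-like cells alone the Ctgf levels were 9570.4, 7862, 2387 and 5056 CPM (log2 fold change -1.55, edgeR adjusted p = 0.397), again without overlap. The Amotl2 levels there, 67.4, 67.0, 53.9 and 104 CPM, did overlap.

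Piezo2 had -0.49 ± 1.62 (edgeR adjusted p = 0.932). Ankrd1 had 4.25 ± 1.11 (edgeR adjusted p = 0.299), a value that rests on the 65 UMIs of 1 cell and turned to -8.49 without HLU replicate 2. It passed the test without the filter on low counts, without each of the other 3 libraries, and with the replicate number as a block (3.82, edgeR adjusted p = 2.6e-05).

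In blood cells the same comparison called Ctgf in 4 of 5 gates and Cyr61 in 1. Ctgf was lower in HLU in neutrophil-like cells (394, 443, 16.4 and 9.01 CPM, log2 fold change -5.07 ± 0.38, edgeR adjusted p = 0.0144), the only member of 6 tested that passed there, where 2.63% of genes were lower. Cyr61 (-4.87 ± 0.89), Yap1 (-3.72 ± 0.78), Wwtr1 (-2.39 ± 0.59) and Amotl2 (-1.04 ± 0.38) had edgeR adjusted p = 0.0575, 0.0831, 0.138 and 0.364 there, and DESeq2 called 4 members. Ctgf was lower in granule-progenitor-like cells (-5.68 ± 0.50, edgeR adjusted p = 0.00660), 1 member of 1 tested, where 0.249% of genes were lower. In T/NK-like cells it was lower by the same test (-5.78 ± 0.48, edgeR adjusted p = 0.000129), again 1 of 1 tested, where 0.491% were lower. The filter on low counts kept Ctgf in these last gates through its Ctrl counts. It had 145, 155, 3 and 12 UMIs in granule-progenitor-like cells and 49, 130, 2 and 4 in T/NK-like cells. A member low in both groups could not be tested there, so 1 of 1 is no share of the members.

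In B-cell-like cells Ctgf (267, 264, 1.13 and 1.92 CPM, -7.62 ± 0.43, edgeR adjusted p = 0.00198, but 0.251 without HLU replicate 1) and Cyr61 were lower, 2 of 3 members tested, where 0.637% of genes were lower. Cyr61 had 51 UMIs in the Ctrl group and 1 in the HLU group there, a ratio of levels of 107 with a counting interval of 18.4 to 4319. Here too the filter on low counts kept Ctgf and Cyr61 through their Ctrl counts, so 2 of 3 is no share of the members. The background was lower in HLU too, with 3640 and 3258 CPM of Ctgf in Ctrl and 72.9 and 133 in HLU in barcodes under 1000 UMIs. Its part in the falls in blood cells was not tested, and the observed values stood at the expected level or below it in neutrophil-like cells of HLU replicate 1 (0.676 for Ctgf).

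Piezo1, which the Ctrl background held at 47.9 and 55.5 CPM and the HLU background at 10.8 and 15.3, was not called in blood. Its log2 fold change was 0.51 ± 0.34 in monocyte-macrophage-like cells (edgeR adjusted p = 0.801), -0.28 ± 0.41 in neutrophil-like cells (adjusted p = 0.829) and -0.44 ± 0.40 in B-cell-like cells (adjusted p = 0.976). In monocyte-macrophage-like cells both HLU values lay above both Ctrl values (31.9 and 46.4 against 22.2 and 31.2 CPM), the nearest being 31.9 and 31.2. Summed over each group the levels were 27.9 CPM in Ctrl and 43.5 in HLU. In monocyte-macrophage-like cells 0 of 4 members and 0 of 10261 genes (0%) passed by edgeR, 539 genes had an unadjusted p under 0.05, and DESeq2 called 108 genes, among them 2 members. Without HLU replicate 1 the log2 fold change of Piezo1 there was 0.76.

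The difference between the 2 classes was tested itself, with an interaction between cell class and HLU that was added after the data were seen, since no skeletal gate had 20 cells in every library. The HLU effect was higher in skeletal than in blood gates for 5 of 8 members, where 2.79% of 14620 genes were higher. A member low in blood cells could pass the filter on low counts through its skeletal or Ctrl sums. Yap1 stood at 0.395 and 0.250 CPM in blood cells of HLU, and Ankrd1 had 0 and 1 UMIs there. Thus 5 of 8 is no share of the members. The difference was 4.93 ± 0.35 on the log2 scale for Cyr61 (edgeR adjusted p = 0.000213), 4.32 ± 0.23 for Ctgf (adjusted p = 0.000101), 3.04 ± 0.39 for Wwtr1 (adjusted p = 0.00260) and 2.64 ± 0.41 for Yap1 (adjusted p = 0.00835). Amotl2 had 1.65 ± 0.29 (adjusted p = 0.0161) and lost the call without putative doublets (1.42, adjusted p = 0.0813). Yap1 and Amotl2 lost it without either Ctrl library.

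Piezo1 had no such difference by the test (-0.36 ± 0.36, edgeR adjusted p = 0.767). In the blood gates together the 5 members that passed stood in Ctrl at 0.960 to 1.83 times the expected UMIs, and Piezo1 at 2.29 and 2.00 times. In HLU replicate 1 the 5 members stood at 0.258 (Wwtr1) to 0.992 (Amotl2) times there, and Piezo1 at 3.23 times. In neutrophil-like cells of Ctrl the 5 members stood at 0.866 to 1.48 times and Piezo1 at 1.29 and 0.992 times. The part of background RNA in the differences of the 5 members was not tested.

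**Figure D5:**
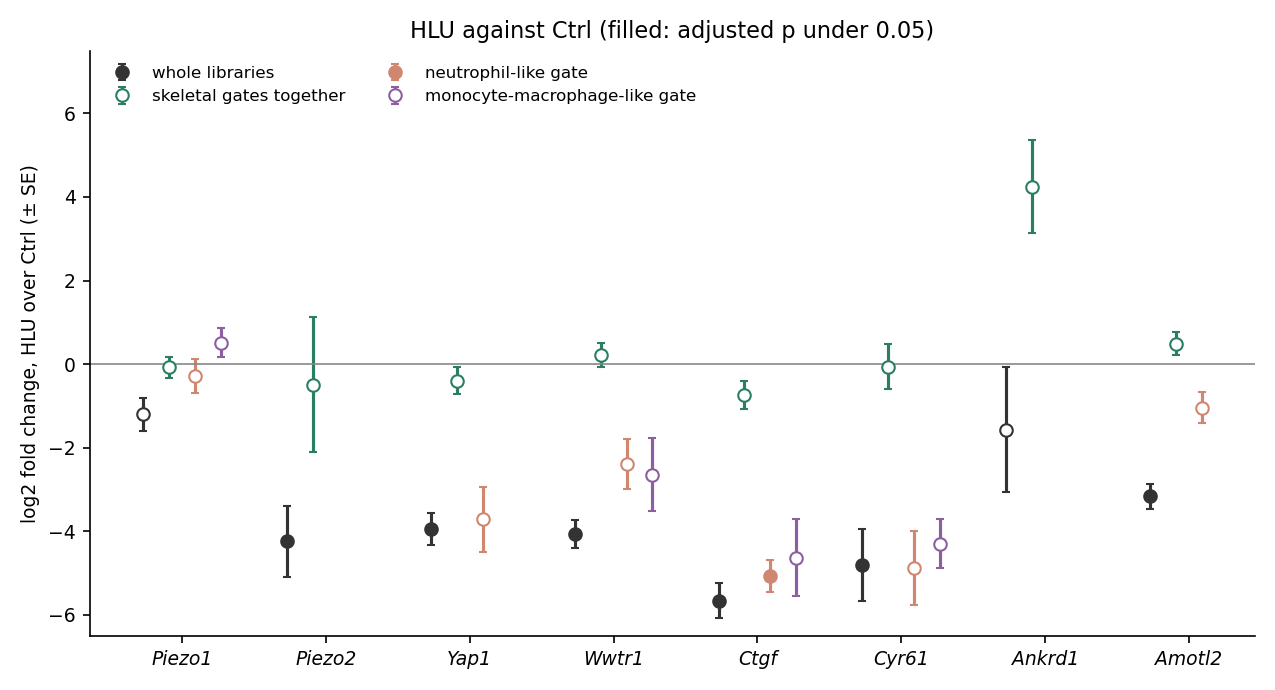
Log2 fold change of HLU over Ctrl (± SE) of the 8 genes in whole libraries, the skeletal gates together and 2 blood gates, filled where the edgeR adjusted p is under 0.05. Ctgf lies at -5.66 in whole libraries, -5.07 in neutrophil-like and -0.74 in skeletal cells, and Ankrd1 at 4.25 in skeletal cells rests on 1 cell.

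The other genes of the pathway were taken as 5 lists. Of other mechanosensing channels, 8 of 14 tested were lower and 1 higher in HLU in whole libraries, where 17.1% of all genes were lower and 6.06% higher, with a median log2 fold change of -1.90 against 0.04 over all genes. Trpv4, a calcium channel of chondrocytes, fell by 4.42 ± 0.42 on the log2 scale (edgeR adjusted p = 0.00414), and the same test called Ano1 (-4.97), Kcnk2 (-4.58), Trpc1 (-4.39) and Pkd2 (-2.86). In the skeletal cells Trpv4 was read at 111, 109, 135 and 133 CPM. There 0 of the 14 channels passed between HLU and Ctrl, as did 0 of all 12707 genes tested (0%).

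Of the TEAD factors and co-factors, 5 of 6 were lower in whole libraries (median -3.45), among them Tead1 (-3.76 ± 0.31, edgeR adjusted p = 0.00354), Tead3 (-4.21), Tead4 (-3.13), Vgll3 (-6.36) and Vgll4 (-0.95). Of 18 further YAP/TAZ targets 11 were lower and 1 higher (median -3.30), with F3, Foxf2, Nt5e, Axl and Crim1 between -4.54 and -3.68. Hippo kinases and scaffolds gave 3 lower (Amotl1 -3.38, Frmd6 -2.02, Wwc2 -1.92) and 1 higher (Stk4, 1.53 ± 0.30, edgeR adjusted p = 0.0241) of 14. The actin-linked targets of SRF, the other main tension-responsive set, gave 2 lower (Tpm2, Tagln) and 3 higher (Filip1l, Flna, Cnn2) of 12. The shares lower in these last 2 lists lie near the 17.1% of all genes. The share of SRF targets that were higher lies above that of all genes, with a median log2 fold change of 0.47 against 0.04.

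In skeletal against blood cells 10 of 14 channels were higher and 2 lower, 11 of 17 further targets higher and 4 lower, 2 of 4 TEAD genes higher and 0 lower (Tead1 by 5.33 ± 0.82 on the log2 scale, Tead3 by 3.68 ± 0.61), 4 of 13 Hippo genes higher and 3 lower, and 2 of 12 SRF targets higher and 7 lower. Of all genes 27.3% were higher and 36% lower, with a median of -0.19, and the share of Hippo genes that were higher lies near the first of these. A gene low in blood cells could pass the filter on low counts through its skeletal sums. Genes low in both classes were not tested, so these counts are no shares of the lists (of 7 TEAD genes listed, 4 were tested). Trpv2, a channel of myeloid cells, went the other way from Trpv4 (-3.87 ± 0.33 against 5.06 ± 0.91), as did the kinase gene Stk4 (-2.33 ± 0.15) against the angiomotin gene Amotl1 (5.35 ± 0.81). No gene of any of the 5 lists passed in skeletal cells between HLU and Ctrl by edgeR, where 0 of all 12707 genes tested (0%) passed. It is therefore no result about the lists.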

How the data were processed

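Single-cell RNA was measured in 4 libraries of mouse bone, 2 Ctrl and 2 HLU, grouped by the labels. The deposited values were raw UMI counts per gene and barcode, which the authors made with Cell Ranger 6.0.0 on mm10 (Seurat 4.1.0 is also named in the submitters' processing notes). No column belonged to an unmatched sample. Barcodes with 1000 to 40000 UMIs and at most 10% mitochondrial UMIs were kept, 7340 to 9485 per library. Cells were gated on marker counts, with thresholds set after the files were seen, and barcodes that met several gates were left out of each. Gates other than skeletal and neutrophil-like (at least 5 markers and 10% of UMIs) needed 3 markers and 0.1% of UMIs, or 5% for erythroid and 0.5% for granule-progenitor cells. Doublets were kept, and those that Scrublet (scanpy 1.11.5) marked were removed as an alternative.

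Counts were summed per library and gate with 20 or more cells in each library and tested in R 4.3.3 with edgeR 4.0.16 (TMM scaling, filterByExpr, quasi-likelihood, Benjamini-Hochberg adjustment over all genes). DESeq2 1.42.0 was an alternative. SEs of log2 fold changes are the fold change over the root of F. The skeletal gates were summed together, since no single skeletal gate reached 20 cells in every library. Fits were tested on simulated data. Intervals and limits from 0 counts (3 counts over the total) cover counting error only. Python 3.11.15 was used for the rest. Genes named from the pathway lists were up to 5 of each list and comparison, taken by size of change among those that passed. The members, the lists and the tests were chosen with earlier results of these data known.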

Additional observations from a re-analysis of the deposited data

Results flagged for a closer look

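The HLU effect differed between the skeletal and the blood gates, by an interaction term in edgeR, for 5 genes. The log2 effect in skeletal cells less that in blood cells was 2.64 for Yap1 (adjusted p = 0.00835), 3.044 for Wwtr1 (adjusted p = 0.00260), 4.32 for Ctgf (adjusted p = 0.000101), 4.93 for Cyr61 (adjusted p = 0.000213) and 1.654 for Amotl2 (adjusted p = 0.0161). The skeletal side rests on 27 and 76 HLU cells. In the blood gates together the 5 genes stood in Ctrl at 0.960 to 1.83 times the UMIs expected from background RNA. In HLU replicate 1 they stood there at 0.258 to 0.992 times. In neutrophil-like cells of Ctrl alone they stood at 0.866 to 1.48 times. The part of background RNA in these differences was not tested.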

How the results depend on the processing

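Of the counts of genes and members that passed, 139 alternatives were within 1.5 times the reported count and 69 were not; the cause was not tested. In skeletal gates, genes that passed numbered 226 by DESeq2, 767 without the filter on low counts, 2 with total UMIs in place of TMM and 219 with the replicate block, against 0, and members 1 by DESeq2, 1 without the filter and 1 with the block. In neutrophil-like cells genes numbered 589 by DESeq2, 1311 without the filter and 34 without putative doublets, against 317, and members 4 by DESeq2, 4 without the filter and 3 in barcodes with at least 2000 UMIs, against 1. In granule-progenitor-like cells genes numbered 31, 253, 6, 253 and 4 by DESeq2, without the filter, with total UMIs, with the block and without doublets, against 17, and members 2 without the filter. In monocyte-macrophage-like cells genes numbered 108, 443 and 2 by DESeq2, without the filter and with the block, against 0, and members 2 and 3 by the first 2 of these. In B-cell-like cells genes numbered 87, 268 and 94 by the same 3, against 53, and members 1 with 1 marker more per gate. In T/NK-like cells genes numbered 151, 15 and 58 without the filter, with total UMIs and with the block, against 26, and members 2 without the filter.

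Leaving out each library in turn gave 848 to 7726 genes in whole libraries, 55 to 910 in skeletal gates, 38 to 4482 in neutrophil-like, 10 to 1796 in granule-progenitor-like, 0 to 3951 in monocyte-macrophage-like, 0 to 80 in B-cell-like and 19 to 445 in T/NK-like cells, and 330 to 843 for the interaction. Members that passed numbered 4 to 8 in whole libraries, 0 to 2 in skeletal gates, 1 to 5 in neutrophil-like, 1 to 2 in granule-progenitor-like, 0 to 4 in monocyte-macrophage-like and 0 to 2 in B-cell-like cells, and 3 to 5 for the interaction. An arm with 1 library left is assumed to vary like the other.

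The direction of small log2 fold changes in skeletal cells turned in Piezo1 (0.15 with total UMIs, 0.020 without doublets, 0.015 in chondrocyte-like cells alone), Wwtr1 (-0.40 in chondrocyte-like cells), Cyr61 (0.028 by DESeq2, 0.23 with total UMIs) and Amotl2 (-0.084 in chondrocyte-like cells). With each library left out they ran from -0.13 to 0.14 for Piezo1, -7.37 to 0.86 for Piezo2, -0.91 to 0.10 for Yap1, -1.13 to 0.59 for Cyr61 and -8.49 to 5.38 for Ankrd1. Likewise Piezo1 ran from -0.79 to 0.12 in neutrophil-like cells and, in the interaction, Piezo1 from -1.03 to 0.22 and Piezo2 from -5.97 to 4.50. Chondrocyte-like cells alone and the interaction were chosen after seeing the data, and an interaction by single skeletal gates could not be fitted.

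The labels give both groups replicate numbers 1 and 2 and no other link between samples. Deviations of same-numbered samples had correlations from -0.147 to 0.268, so the numbers were not taken as pairs. With the replicate block, 3428 genes passed in whole libraries and 230 in neutrophil-like cells. HLU skeletal levels are limited by 413432 and 722377 UMIs.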

Other observations

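Amotl2 was also read in megakaryocyte-like cells of the HLU libraries, in 5 of 21 and 10 of 30 cells (12.5 and 18.7 CPM, at most 1 UMI a cell), and in 0 of 10 and 0 of 9 such cells in Ctrl. Too few of these cells were present in Ctrl for a test.

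Over the levels in 16 gates, the genes whose pattern was most like that of Piezo1 were Wsb2, Nrp2 and Zmiz1 (Pearson r of 0.936, 0.929 and 0.922, of 13237 genes). Yap1 and Wwtr1 shared the same 3 genes, Amotl1, Bcar1 and Nectin3 (r of 0.988 to 0.991), of which Amotl1 encodes another angiomotin. Ctgf was most like Cpe, Mgp and Cryab (r of 0.981, 0.981 and 0.98), and Mgp encodes a matrix protein of cartilage. Cyr61 was most like Hspg2, Hbegf and Ackr3 (r of 0.988, 0.984 and 0.98) and Amotl2 like Ube2e2, Pam and Ghr (r of 0.974, 0.970 and 0.969). These correlations are descriptions over gates of the same 4 libraries, which share their background RNA and differ in depth. Piezo2, on 60 UMIs in all, was most like Palmd, Col8a1 and Shroom4 (r of 0.974, 0.972 and 0.960), and Ankrd1, on 200 UMIs mostly from a few cells, like Msmp, Fgf18 and Shank2 (r of 0.989, 0.98 and 0.961).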
